A study of Arabidopsis thaliana with 72 samples.

Results

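UDP-glycosyltransferases (UGTs) are the enzymes that attach a sugar, most often glucose taken from UDP-glucose, to small molecules such as hormones, phenolic acids, flavonols and monolignols, the building units of lignin. Attaching the sugar changes the solubility, storage and activity of the acceptor, and beta-glucosidases can release it again. In Arabidopsis the family is divided by sequence into numbered subfamilies, and enzymes of different subfamilies can share an acceptor.

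The members described here were the genes whose symbol has the form UGT, digits, letter, digits and which had a probe set paired with that gene alone, with UGT78D2 left aside. These were 46 of the 57 genes so named in the gene table, each with 1 probe set, among 22746 probe sets on the array. UGT71 had 9 members, UGT76 had 8, UGT73 had 7, UGT84 and UGT85 had 5 each, UGT72 had 4, UGT74 had 3, UGT78 had 2, and UGT80, UGT87 and UGT88 had 1 each. UGT75 and UGT89 had 0. Glycosyltransferase genes listed under another symbol, such as HYR1 or UF3GT, were not counted.

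The 6 Arabidopsis thaliana lines of the study, chosen for unlike growth under scarce nitrogen, were profiled on Affymetrix arrays, with shoot and root RNA hybridised separately. Plants grew for 21 days on agar with 1% sucrose and nitrate at 0.4 mM, here called low, or at 9 mM, here called sufficient. The lines El-0 and Fei-0 are accessions, natural inbred strains. KB006 (from Kondara and Br-0), NG064 and NG087 (both from Nok-3 and Ga-0) and SG063 (from Sorbo and Gy-0) are recombinant inbred lines, each fixed by inbreeding after a cross between 2 accessions. The low medium held calcium nitrate with potassium chloride, and the sufficient medium held potassium nitrate and calcium nitrate. Each of the 24 groups had 3 replicates, every one a pool of 30 plants from 3 plates, so p-values measure the spread between such pools. In whole organs, fewer cells of a type and less RNA per cell cannot be told apart.

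Values are log2 expression, so a difference of 1 is a factor of 2. Across 22700 probe sets that are not members, 68 of 72 arrays correlated best with the mean of their labelled organ and nitrate supply (r of 0.957 to 0.993). The 4 that did not were the complete replicate 3 of Fei-0. By this measure its low-nitrate shoot array resembled sufficient-nitrate shoots, and its sufficient-nitrate shoot array resembled low-nitrate roots (r = 0.988, against 0.789 with its own label). Its low-nitrate root array resembled sufficient-nitrate roots, and its sufficient-nitrate root array resembled low-nitrate shoots. These 4 arrays were left out, not relabelled, which leaves 17 arrays for each organ and nitrate supply. All 7 shoot markers, such as LHCB4.2 and RCA, and all 4 measured root markers were higher in the organ that they mark, at both supplies.

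The deposited values have a floor of 2.11, and an array within 0.1 of it was counted as at the floor. A gene at the floor gives no level, so a difference from it is measured from the floor. In shoots 22 members had a mean of 5 or more and 13 were at the floor on at least 17 of 34 arrays. In roots 27 members had a mean of 5 or more and 15 were at the floor on at least 17 of 34 arrays. UGT71B8, whose enzyme glucosylates abscisic acid, and UGT84B2 were at the floor on every array of both organs. In roots 7 further members were at the floor on all 34 arrays: UGT71B6, UGT73C1, UGT73C2, UGT76E1, UGT76E12, UGT84B1 and UGT85A3. Levels of different genes on an array depend on the probes and were not compared with each other.

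**Figure D1:**
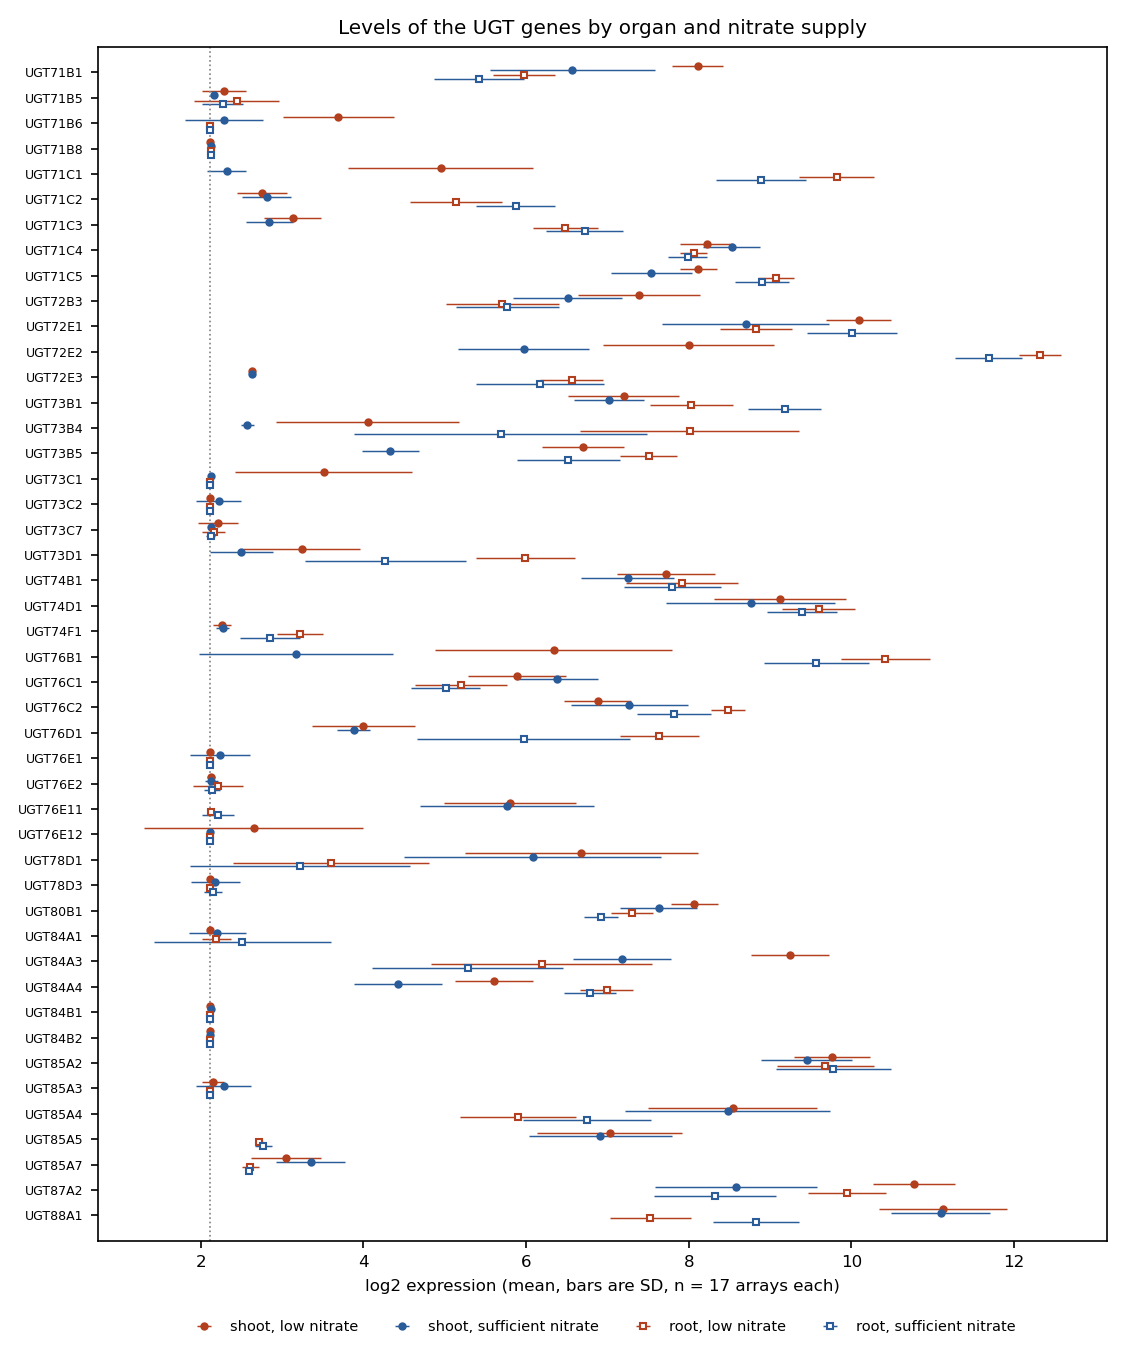
Mean log2 expression of the 46 UGT genes (rows), in shoots (filled circles) and roots (open squares), at low (red) and sufficient nitrate (blue), with SD over 17 arrays each; the dotted line is the floor of 2.11. Within a row, UGT71C1, UGT72E2 and UGT76B1 lie far higher in roots, UGT85A5 and UGT76E11 lie far higher in shoots, and UGT84B2 lies at the floor throughout.

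Most members were organ-biased, as were most probe sets on the array. At sufficient nitrate 34 of 46 differed between organs (67.3% of all probe sets), with 15 higher in shoots (28.4%) and 19 higher in roots (38.8%). At low nitrate 33 differed (62.6%), with 17 higher in shoots (25.7%) and 16 higher in roots (36.8%). In percent of members, 32.6 were higher in shoots and 41.3 in roots at sufficient nitrate, and 37.0 in shoots and 34.8 in roots at low nitrate. The balance depends on the scaling of the arrays. With each array centred on its median, 23 members were higher in shoots (54.2% of all probe sets) and 18 in roots (32.6%) at sufficient nitrate. At low nitrate 17 were then higher in shoots (24.2%) and 21 in roots (53.6%). Such calls can include genes at the floor, which centring shifts.

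UGT71C1, whose enzyme glucosylates flavonols and other phenylpropanoids in vitro, showed the largest root bias at sufficient nitrate. Its level was 2.11, 2.24 and 3.22 (lowest, median, highest) in shoots and 7.40, 9.00 and 9.62 in roots. The organs did not overlap, and the log2 difference, given as shoot minus root for every gene, was -6.58 ± 0.24 (SE, adjusted p = 1.36e-28). UGT76B1, which glucosylates isoleucic acid, salicylic acid and N-hydroxypipecolic acid, compounds that act in defence, differed by -6.19 ± 0.34. Monolignol glucosyltransferase UGT72E2 differed by -5.75 ± 0.24, and UGT71C3 by -3.86 ± 0.10. UGT72E3, a close relative of UGT72E2, differed by -3.55 ± 0.11 and lay between 2.62 and 2.73 on all shoot arrays, its own lowest level.

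UGT85A5 had the largest shoot bias. Its level at sufficient nitrate was 4.67, 7.08 and 8.00 (lowest, median, highest) in shoots and 2.69, 2.69 and 2.96 in roots, a difference of 4.10 ± 0.19 (SE, adjusted p = 1.43e-24). No root array reached the lowest shoot array. UGT76E11, a flavonol glucosyltransferase, differed by 3.50 ± 0.21, and UGT78D1, which adds rhamnose to flavonols, by 2.82 ± 0.33. In sufficient-nitrate roots UGT76E11 was at the floor on 12 of 17 arrays, and the median of UGT85A5 was its own lowest level. The differences of these genes are measured from there. UGT88A1 differed by 2.29 ± 0.11, and UGT84A3, which makes glucose esters of hydroxycinnamic acids such as sinapate, by 1.88 ± 0.13. All 3 members of UGT74 were higher in roots at this supply, and 4 of 5 members of UGT85 were higher in shoots.

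The second comparison asked which members responded to low nitrate, averaged over the 6 lines with equal weight. In shoots 19 of 46 members rose, which is 41.3% against 28.0% of all probe sets, and 4 fell, which is 8.7% against 21.9%, so that 23 were called in all (49.9% of all probe sets). A rise of 2-fold or more was found for 12 members (26.1%, against 7.14% of all probe sets) and a fall of that size for 0 (against 5.9%). The median change of the members was 0.18, and that of all probe sets was 0.00. The median of an array differed between supplies in shoots, at 5.98 ± 0.04 in low-nitrate and 5.80 ± 0.05 in sufficient-nitrate arrays (SD, n = 17 each). Relative to that median, with each array centred on it, 15 members rose (20.4% of all probe sets) and 16 fell (57.7%). Centring moves a value at the floor with its array, so calls of genes at the floor are not measured changes. All 15 that rose after centring were among the 19, and all 4 falls were kept.

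UGT76B1 rose most in shoots. Its level was 2.53, 6.48 and 8.98 (lowest, median, highest) at low nitrate and 2.14, 3.02 and 6.83 at sufficient nitrate, a change of 3.10 ± 0.47 (SE) or 8.56-fold (adjusted p = 5.56e-06). The ranges overlapped, since replicate 2 of KB006 was the lowest array at low nitrate and a Fei-0 array was the highest at sufficient nitrate. On 3 of 17 sufficient-nitrate arrays UGT76B1 was at the floor, so its change and its organ difference are in part measured from there. UGT71C1 had 2.24, 4.93 and 6.28 at low nitrate and 2.11, 2.24 and 3.22 at sufficient nitrate, a change of 2.63 ± 0.32 or 6.19-fold (adjusted p = 2.3e-07). On most sufficient-nitrate arrays it lay close to the floor, so this change and its organ difference are measured from there. Its low-nitrate arrays lay above all 17 sufficient-nitrate arrays, except that of KB006 replicate 2. UGT72E2 rose by 2.10 ± 0.33 or 4.28-fold (adjusted p = 8.12e-06), with 5.72 to 9.54 at low nitrate and 4.25 to 7.12 at sufficient nitrate.

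These 3 genes also had the largest root bias, and other root-biased transcripts moved with them in shoots. The 100 non-member probe sets with the largest root bias averaged 4.12 ± 0.82 in low-nitrate shoots and 3.19 ± 0.34 in sufficient-nitrate shoots (SD, n = 17 each). Their lowest low-nitrate arrays were replicate 2 of KB006 (2.75), NG087 (2.80) and SG063 (2.86), all other low-nitrate shoot arrays being at 3.85 or more. The same 3 arrays had the lowest low-nitrate values of UGT71C1 (2.24, 3.25 and 3.28) and of UGT72E2 (5.72, 6.08 and 6.50), and UGT76B1 was at 2.53, 5.44 and 4.60. Without these 3 arrays UGT76B1 rose by 3.60, UGT71C1 by 3.08 and UGT72E2 by 2.49. Larger rises follow from leaving out low values, so they decide nothing about the root-biased signal. The 4 measured of 16 listed root markers included 0 that rose and 3 that fell in shoots. Their summed level was 9.26 to 11.19 (median 9.86) in low-nitrate and 9.20 to 10.98 (median 10.61) in sufficient-nitrate shoots, and EXPA7, a root hair gene, had a low-nitrate median of 3.04 and a sufficient-nitrate median of 3.30. The 7 shoot markers had a summed level of 15.04 to 16.04 (median 15.82) in low-nitrate and 16.07 to 16.55 (median 16.39) in sufficient-nitrate shoots, and 6 of them fell. The part of these cell types in the rises of UGT genes was not tested.

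UGT73B5 and UGT84A3 gave the most even response. UGT73B5, a gene of pathogen and redox responses, had 5.72, 6.63 and 7.69 at low nitrate and 3.39, 4.35 and 5.17 at sufficient nitrate, a change of 2.35 ± 0.16 or 5.09-fold (adjusted p = 1.67e-11). UGT84A3 had 8.60, 9.22 and 10.36 at low nitrate and 6.29, 7.12 and 8.40 at sufficient nitrate, a change of 2.04 ± 0.15 or 4.10-fold (adjusted p = 4.77e-11). Both were called in 6 of 6 lines, and they were the 2 members whose low-nitrate range over all lines lay wholly above the sufficient-nitrate range (1.89% of all probe sets). In the 3 arrays with the lowest root-biased signal, UGT73B5 was at 6.63, 6.72 and 6.09 and UGT84A3 at 9.02, 8.82 and 8.81, within the range of the other low-nitrate arrays.

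UGT87A2, a gene with a role in flowering time, rose by 2.10 ± 0.15 or 4.28-fold (adjusted p = 5.48e-11). Its level was 9.85, 10.62 and 11.64 at low nitrate and 7.55, 8.33 and 10.89 at sufficient nitrate. Sufficient-nitrate shoots of Fei-0 reached 10.89 and overlapped with the low range of other lines. Those of El-0 reached 9.99, above KB006 replicate 2 alone, the other low-nitrate arrays being at 10.18 or more. Within each of the 6 lines the supplies did not overlap for UGT87A2, UGT72E1, UGT73B5 and UGT84A3 (4 members, against 5.79% of all probe sets). No member, against 5.11% of all probe sets, had its low-nitrate shoot arrays below in every line.

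**Figure D2:**
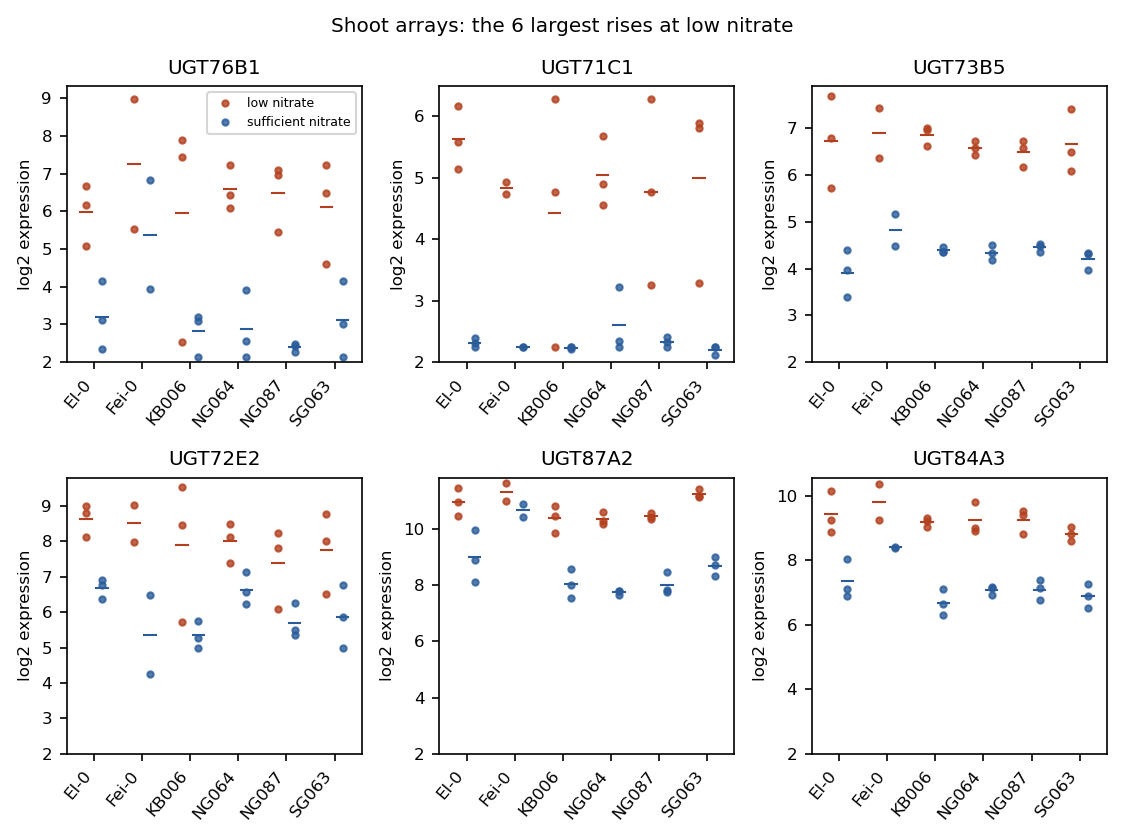
Log2 expression (vertical axis) on each shoot array by line (horizontal axis), low nitrate (red) left of sufficient nitrate (blue), with group means as bars, for the 6 members with the largest shoot rises; the vertical scale differs between panels. UGT73B5 and UGT84A3 separate the supplies in all lines, and 1 KB006 array at low nitrate lies with the sufficient-nitrate arrays for UGT76B1 and UGT71C1.

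The other shoot rises are given by the role of the enzyme where it is known. Among hormone glucosyltransferases UGT71B6, which acts on abscisic acid, was at 2.51, 3.74 and 4.73 at low nitrate, against 2.11, 2.11 and 4.09 at sufficient nitrate. It was at the floor on 12 of 17 sufficient-nitrate arrays and rose by 1.32 ± 0.19 (adjusted p = 2.67e-06). UGT71C5, also an abscisic acid enzyme, rose by 0.62 ± 0.13. UGT73C1, which acts on cytokinins and on the explosive TNT, was at the floor on all sufficient-nitrate arrays and on 2 of 17 low-nitrate arrays, and rose by 1.43 ± 0.21. UGT73B4, also able to conjugate TNT, rose by 1.56 ± 0.20.

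In phenylpropanoid metabolism the monolignol gene UGT72E1 rose by 1.43 ± 0.19 and UGT84A4, of the hydroxycinnamate ester group, by 1.14 ± 0.15. UGT84A1 of the same group was at the floor on 17 of 17 low-nitrate and 16 of 17 sufficient-nitrate shoot arrays. Without a role given here, UGT71B1 rose by 1.51 ± 0.18, UGT72B3 by 0.89 ± 0.16 and UGT73D1 by 0.72 ± 0.14. Small rises were found for UGT74B1 (0.44 ± 0.15), a glucosinolate enzyme, UGT80B1 (0.43 ± 0.12), a sterol glucosyltransferase, and for UGT71C3 (0.31 ± 0.11) and UGT71B5 (0.14 ± 0.05), which was at the floor on most arrays.

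Both genes for cytokinin N-glucosylation were among the 4 shoot falls. UGT76C1 was at 4.91, 6.06 and 6.47 (lowest, median, highest) at low nitrate and 5.13, 6.61 and 6.99 at sufficient nitrate, and fell by 0.51 ± 0.08 (SE, adjusted p = 6.03e-06). The ranges overlapped over lines, and 6 of 6 lines had a lower mean at low nitrate. UGT76C2 fell by 0.39 ± 0.15 (adjusted p = 0.0346) and UGT85A7 by 0.33 ± 0.13 (adjusted p = 0.0318). UGT71C4 fell by 0.30 ± 0.06. Without any one replicate number, neither UGT76C2 (adjusted p of 0.0681 to 0.18) nor UGT85A7 (0.0534 to 0.177) was called.

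By subfamily, in shoots, 3 of 4 UGT72 members rose (median change 1.16), as did 4 of 7 UGT73 members (0.72), 6 of 9 UGT71 members (0.31) and 2 of 5 UGT84 members (0.00), where 28.0% of all probe sets rose and 21.9% fell. In UGT76, 1 of 8 rose and 2 fell (median 0.01). UGT85 had 0 rises and 1 fall among 5 members (0.05), and neither UGT78 member was called. These counts and medians include members that were at the floor on most of the 34 shoot arrays and had no level to compare. In UGT84 these were UGT84A1 and UGT84B1 (33 arrays each) and UGT84B2 (34), and in UGT76 they were UGT76E1, UGT76E2 and UGT76E12 (31 each). Others were UGT71B5 and UGT73C2 (30 each), UGT71B8 (34), UGT73C7 (31), UGT78D3 (33) and UGT85A3 (27). In El-0, UGT76E12, a flavonol glucosyltransferase gene, reached 6.78 and 3.15 on 2 of 3 low-nitrate shoot arrays, and 5.44 on 1 of 2 Fei-0 arrays. On all other low-nitrate arrays it was at 2.11 to 2.20 and on all sufficient-nitrate arrays at 2.11, and it was not called (0.60 ± 0.31, adjusted p = 0.113).

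In roots 14 of 46 members rose, which is 30.4% against 23.6% of all probe sets, and 6 fell, which is 13% against 19.1%, so that 20 were called in all (42.8% of all probe sets). Changes of 2-fold or more comprised 4 rises (8.7%, against 2.59%) and 3 falls (6.52%, against 3.97%). The median change was 0.05, and that of all probe sets was 0.00. Centred on the array medians, 28 members rose (49.2% of all probe sets) and 5 fell (18.1%). Here too a call of a gene at the floor, as 9 members were on all root arrays, is not a measured change. All 14 rises and 5 of 6 falls were kept, UGT85A5 being the exception. In roots the median of an array was 5.94 ± 0.02 at low supply and 5.97 ± 0.03 at sufficient supply (SD, n = 17 each).

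UGT73B4 rose most in roots. Its level was 5.62, 8.73 and 9.53 (lowest, median, highest) at low nitrate and 2.61, 6.56 and 8.30 at sufficient nitrate, a change of 2.30 ± 0.20 (SE) or 4.93-fold (adjusted p = 1.09e-09). It was called in 6 of 6 lines. Within lines the supplies overlapped in NG064 alone, whose replicate 2 was at 8.30 at sufficient nitrate. UGT87A2 rose by 1.59 ± 0.08 or 3.02-fold (adjusted p = 1.23e-13), with 9.42 to 11.11 at low nitrate and 7.41 to 10.09 at sufficient nitrate. It was also called in 6 of 6 lines and was the 1 member whose arrays at low nitrate were above those at sufficient nitrate in every line (3.15% of all probe sets).

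UGT73D1 rose by 1.80 ± 0.16 (3.49-fold) and UGT76D1, which glucosylates dihydroxybenzoic acids, the oxidised forms of salicylate, by 1.68 ± 0.15 (3.20-fold). UGT73B5 rose by 1.00 ± 0.15 and UGT71C1 by 0.94 ± 0.10. UGT84A3 rose by 0.92 ± 0.10 and UGT76B1 by 0.87 ± 0.09. The remaining rises were UGT76C2 (0.65 ± 0.06), UGT72E2 (0.62 ± 0.08), UGT71B1 (0.51 ± 0.09), UGT80B1 (0.38 ± 0.07), UGT74F1 (0.35 ± 0.08), a salicylate glucosyltransferase gene, and UGT84A4 (0.19 ± 0.07). The call of UGT84A4 was lost without replicate 2, without replicate 3 and without any of El-0, Fei-0, KB006, NG064 or NG087.

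UGT88A1 fell most in roots. Its level was 6.77, 7.49 and 8.75 at low nitrate and 7.98, 8.81 and 9.65 at sufficient nitrate, a change of -1.30 ± 0.10 or 2.46-fold lower (adjusted p = 1.11e-10), called in 6 of 6 lines. UGT73B1 had 7.17, 8.03 and 8.69 at low nitrate and 8.64, 9.12 and 10.27 at sufficient nitrate, a change of -1.16 ± 0.11 (adjusted p = 8.97e-09). Over all lines the ranges of both overlapped, while within every line the low-nitrate arrays lay below the sufficient-nitrate arrays (2 members, against 3.68% of all probe sets). Over all lines, 0 members had root ranges that did not overlap, against 0.906% of all probe sets higher and 1.37% lower at low nitrate. UGT72E1 fell by 1.13 ± 0.10, UGT85A4 by 0.90 ± 0.10 and UGT71C2 by 0.69 ± 0.13. UGT71C2 fell by 0.45 without replicate 1, the smallest of its values. UGT85A5 fell by 0.06 ± 0.02 at its own lowest level, a call lost under 7 of the alternatives tried.

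The summed marker transcripts of both organs were lower in low-nitrate roots. The 7 shoot markers had a summed level of 6.92 to 9.49 (median 8.62) at low nitrate and 10.66 to 12.10 (median 11.27) at sufficient nitrate, with no overlap. The 4 root markers had 10.62 to 12.22 (median 11.50) at low nitrate and 12.61 to 14.21 (median 13.09) at sufficient nitrate, and 3 of them fell. JAL22 fell by 2.53 ± 0.16 and JAL33 by 1.63 ± 0.11. The fall of EXPA7 was 0.51 ± 0.15, and EXPA18 was not called (-0.04 ± 0.18). UGT88A1, UGT85A4 and UGT85A5 were higher in shoots, whereas UGT73B1, UGT71C2 and, at sufficient nitrate, UGT72E1 were higher in roots. The part of these cell types in the falls of UGT genes was not tested.

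**Figure D3:**
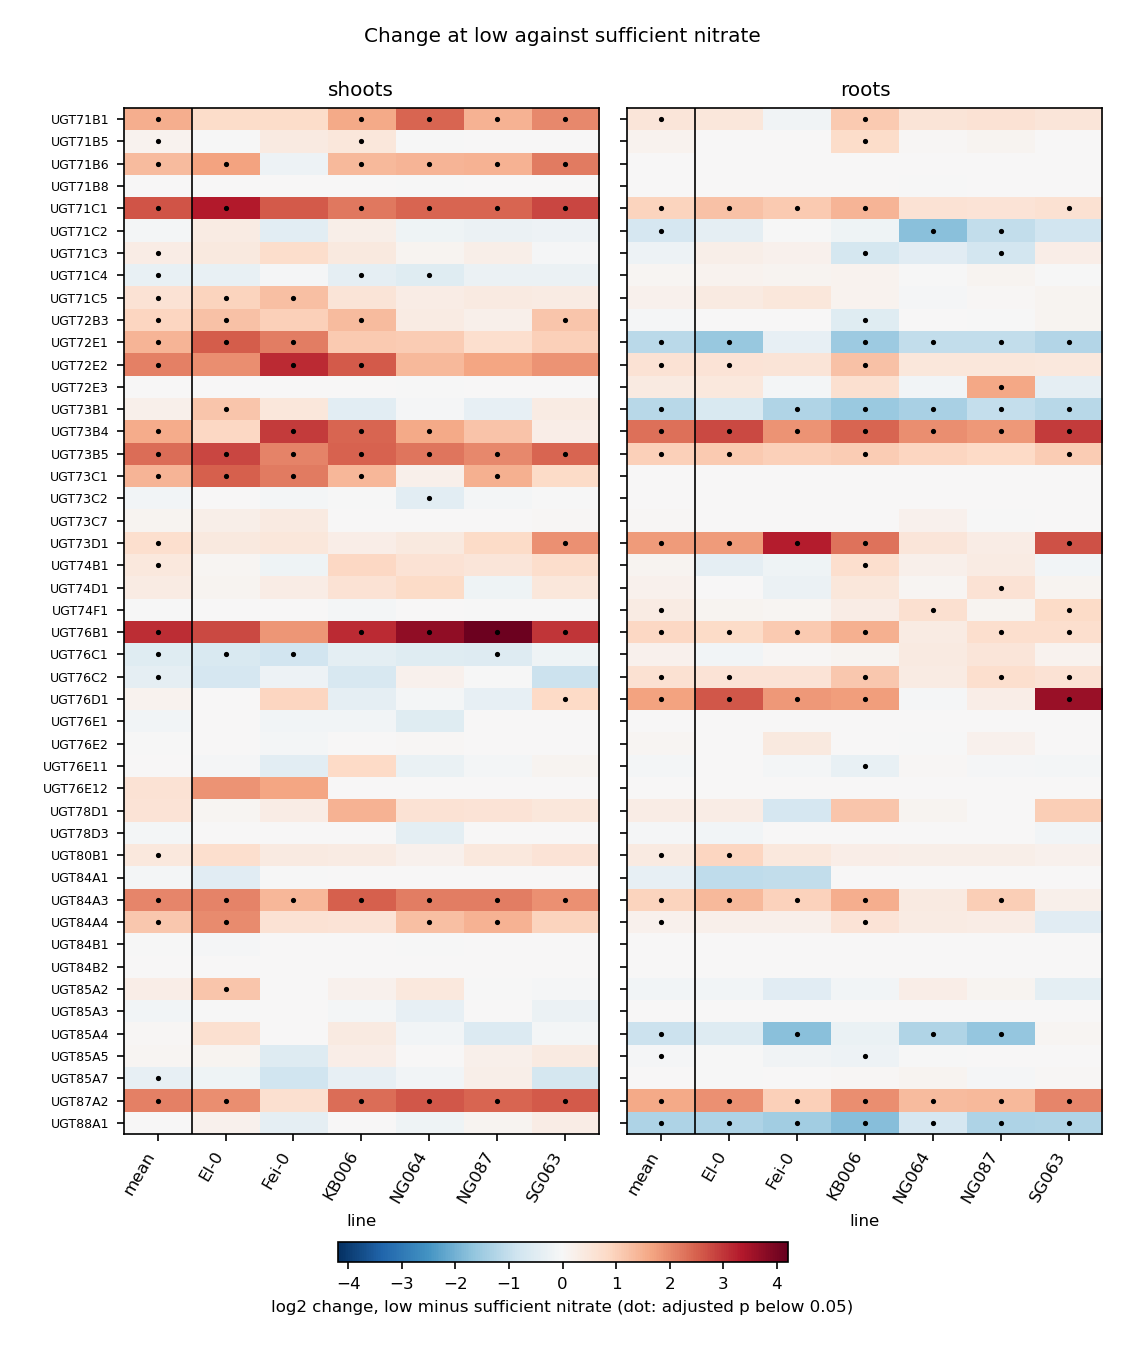
Log2 change at low minus sufficient nitrate for each member (rows), as the mean over lines and in each of 6 lines (columns), in shoots (left) and roots (right); red is higher at low nitrate, blue is lower, and a dot marks an adjusted p below 0.05. UGT73B5 and UGT84A3 in shoots and UGT73B4, UGT87A2 and UGT88A1 in roots carry a dot in all 6 lines.

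The organs were then compared in their response. Of the 46 members 11 rose in both organs (14.5% of all probe sets) and 0 fell in both (9.82%). In shoots alone 7 were called as risen (10.4%) and 3 as fallen (9.98%), and in roots alone 2 as risen (7.03%) and 5 as fallen (6.21%). One gene rose in shoots and fell in roots (3.1%), another did the opposite (2.09%), and 16 were called in neither organ (36.8%). The shoot response minus the root response differed from 0 for 26 members (43.5% of all probe sets), 18 of them positive (24.5%) and 8 negative (19.0%). This balance depends on the scaling. Centred on the array medians, 34 members were called (71.4%), 16 positive (16.1%) and 18 negative (55.4%), which can include genes at the floor. The values below are those without centring. Of the 11 genes that rose in both organs, 8 responded more in shoots, with differences of 0.50 (UGT87A2) to 2.23 (UGT76B1). UGT73B4 (-0.74 ± 0.28) and UGT73D1 (-1.08 ± 0.21) responded more in roots, and UGT80B1 did not pass the test (0.05 ± 0.14). In sufficient-nitrate shoots UGT73B4 was at 2.38 to 2.67 and UGT73D1 at a median of 2.41, near their own lowest levels. Their shoot changes are measured from there.

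UGT72E1 changed in opposite directions. In shoots its level was 9.50, 10.07 and 10.94 (lowest, median, highest) at low nitrate. At sufficient nitrate its lowest shoot array was at 5.72 and its median at 8.88, and no array reached the low-nitrate median. In roots it was 7.87, 8.90 and 9.40 at low nitrate and 9.21, 10.19 and 10.72 at sufficient nitrate. The difference between the responses was 2.56 ± 0.22 (SE, adjusted p = 2.04e-13), the largest of all members. Its organ bias turned with it: shoots exceeded roots by 1.23 ± 0.15 at low nitrate, while at sufficient nitrate the difference was -1.33 ± 0.15. All 6 lines had a higher mean in low-nitrate shoots and a lower mean in low-nitrate roots. Its paralogue UGT72E2 rose in both organs, and UGT72E3 was at its lowest level in shoots and not called in roots (0.37 ± 0.16, adjusted p = 0.0696).

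UGT76C2 changed the other way, lower in low-nitrate shoots and higher in low-nitrate roots, with a difference between responses of -1.04 ± 0.16 (adjusted p = 7.54e-07). The call of its shoot fall was lost with all 72 arrays and without replicate 1, 2 or 3, among other alternatives. In roots its level was 8.10, 8.50 and 8.87 at low nitrate and 6.98, 7.93 and 8.62 at sufficient nitrate. UGT76C1, the other cytokinin enzyme, had a root change of 0.18 ± 0.08 that was not called (adjusted p = 0.0707) and a difference of -0.69 ± 0.11. UGT88A1 (1.31 ± 0.15) and UGT73B1 (1.36 ± 0.18) fell in roots with shoot changes of 0.01 and 0.20 that were not called. UGT71B6 (1.32 ± 0.19) and UGT73C1 (1.43 ± 0.21) were at the floor in all roots, so no root response of these genes could be measured.

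**Figure D4:**
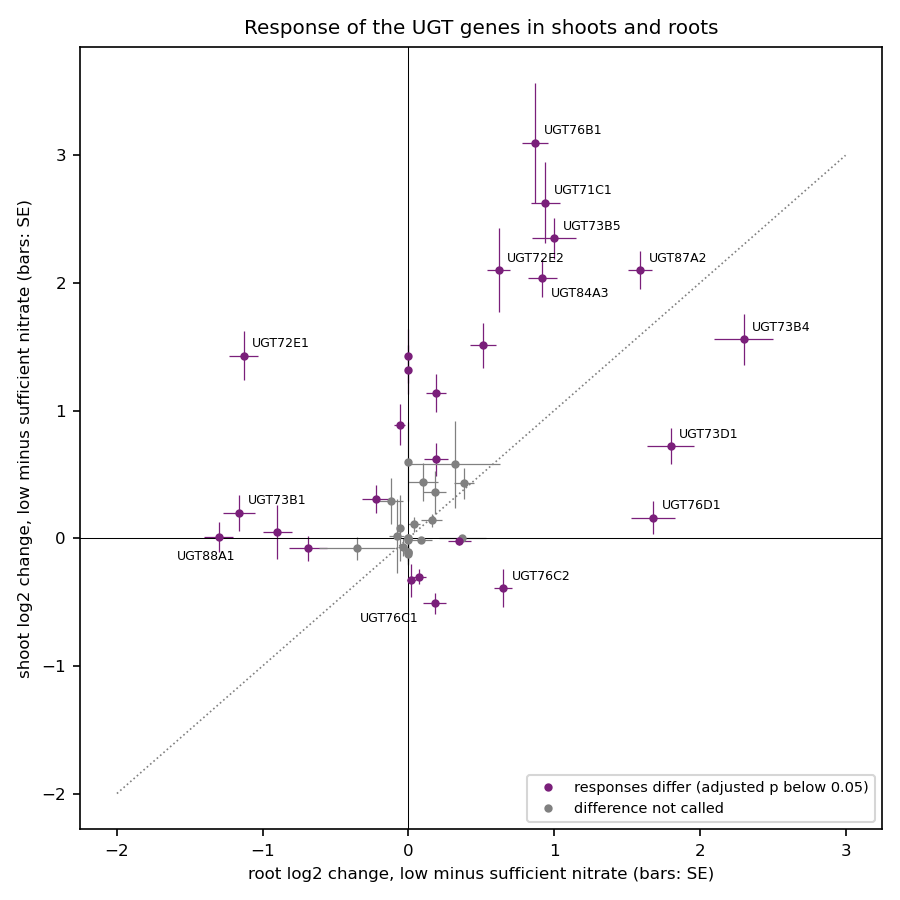
Shoot response (vertical axis) against root response (horizontal axis) of each member as log2 change at low minus sufficient nitrate, with SE bars; purple points have responses that differ between organs, and the dotted line marks equal responses. UGT76B1 and UGT71C1 lie well above the line, UGT76D1 and UGT73D1 lie below it, and UGT72E1 lies alone at the upper left, with a shoot rise and a root fall.

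The next question was whether the lines responded alike. Within single lines, 13 members were called in shoots of El-0 (25.2% of all probe sets) and KB006 (23.5%), 11 in NG064 (22.9%), 10 in NG087 (22.3%) and SG063 (25.5%), and 8 in Fei-0 (15.8%). In roots 21 members were called in KB006 (25.6%), 13 in El-0 (14.1%) and NG087 (18.7%), 12 in SG063 (21.9%), 10 in Fei-0 (9.88%) and 8 in NG064 (24.4%). Fei-0 groups rest on 2 arrays. The test of whether the response differed between lines called 0 of 46 members in shoots with limma (1.11% of all probe sets), with 7 at an unadjusted p below 0.05. The smallest adjusted p-values were 0.303 for UGT71B5, 0.306 for UGT73B4, 0.392 for UGT73D1 and 0.395 for UGT87A2. In roots it called 4 of 46 (6.24%), with 19 at an unadjusted p below 0.05.

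UGT76D1 had the strongest difference between lines in roots (adjusted p = 0.00029). At low nitrate all 17 root arrays lay between 6.87 and 8.74. At sufficient nitrate NG064 had 7.49, 8.01 and 7.59 and NG087 had 7.67, 7.20 and 7.31, while El-0 had 4.93, 4.08 and 5.52, Fei-0 5.86 and 5.60, KB006 5.76, 4.48 and 5.84, and SG063 4.40, 4.88 and 4.87. The lines from Nok-3 and Ga-0 thus stayed near the low-nitrate level, with no overlap with the other 4 lines. The change was -0.06 ± 0.35 in NG064 and 0.29 ± 0.35 in NG087 (neither called), and it ran between 1.77 ± 0.35 (KB006) and 3.63 ± 0.35 (SG063) in the others, all called.

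UGT73D1 showed the same split (adjusted p = 0.00502). At sufficient nitrate it was at 4.72, 6.39 and 4.80 in NG064 roots and 5.79, 5.61 and 5.29 in NG087 roots, and at 3.20 to 4.41 in the other 4 lines. The change was 0.51 ± 0.37 in NG064 and 0.30 ± 0.37 in NG087, neither called, against 1.78 ± 0.37 (El-0) to 3.29 ± 0.45 (Fei-0) in the others, all called. UGT85A4 (adjusted p = 0.00533) fell in roots of Fei-0 (by 1.76 ± 0.29), NG087 (by 1.62 ± 0.24) and NG064 (by 1.27 ± 0.24). Its changes of -0.54 in El-0, -0.28 in KB006 and 0.09 in SG063 were not called. UGT72B3 (adjusted p = 0.0459) fell in KB006 roots alone by this call, with 5.16 on all 3 low-nitrate arrays and 5.74, 5.56 and 5.71 at sufficient nitrate. Over both supplies it was at 5.05 to 5.37 in NG064 and 5.05 to 5.27 in NG087 roots. These values are near its own lowest level, so a fall in these lines could hardly be measured. The 4 calls depend on the arrays used: 0 members were called without replicate 1, 4 without replicate 2 and 1 without replicate 3.

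**Figure D5:**
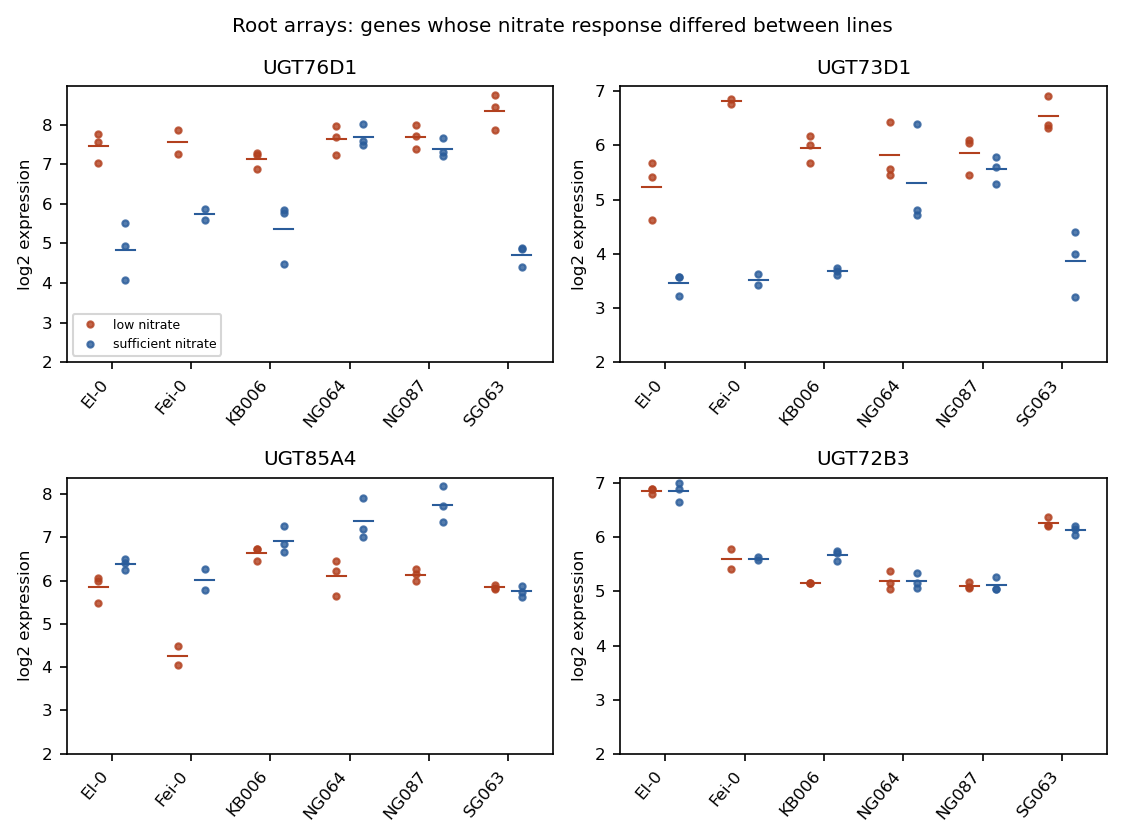
Log2 expression (vertical axis) on each root array by line (horizontal axis), low nitrate (red) left of sufficient nitrate (blue), with group means as bars, for the 4 members whose root response differed between lines. For UGT76D1 and UGT73D1 the blue points of NG064 and NG087 lie above those of the other 4 lines, while the red points of these lines lie within the range of the others.

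Levels averaged over both supplies differed between lines for 18 members in shoots (35.9% of all probe sets) and 29 in roots (56.0%). Probes are designed on a reference genome, and a line whose sequence departs from it may give a lower signal at the same transcript level, which was not tested. In shoots the cytokinin gene UGT76C1 averaged 5.37 ± 0.50 in El-0 (SD, n = 6) and 5.39 ± 0.48 in Fei-0 (n = 4), and 6.32 to 6.64 in the 4 recombinant inbred lines (adjusted p = 3.73e-08). It was also lowest in El-0 and Fei-0 roots, at 4.34 ± 0.25 and 4.66 ± 0.13. UGT88A1 averaged 10.28 ± 0.16 in NG064 and 10.43 ± 0.20 in NG087 shoots and 10.88 to 11.80 in the other lines (adjusted p = 7.71e-07). UGT71C4 was lowest in El-0 shoots (7.76 ± 0.29), the other lines having 8.38 to 8.60. UGT74D1, whose enzyme glucosylates auxins, was lowest in NG064 shoots (7.48 ± 0.57) and averaged 8.60 to 10.02 elsewhere.

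In roots UGT72B3 averaged 6.86 ± 0.12 in El-0 (SD, n = 6) and 6.20 ± 0.11 in SG063, and 5.12 to 5.61 in the other lines (adjusted p = 2.46e-15). UGT84A3 averaged 3.74 ± 0.16 in SG063 and 4.87 ± 0.88 in KB006, against 6.04 to 7.30 in the other 4 lines (adjusted p = 2.9e-13). In shoots the same probe set averaged 7.85 ± 1.08 in SG063 and 7.93 ± 1.40 in KB006, against 8.16 to 9.10 elsewhere. UGT73B4 averaged 4.89 in roots of both El-0 (SD 1.57) and SG063 (SD 1.71) and 7.70 to 8.13 in the other lines (adjusted p = 1.81e-09), and it rose at low nitrate in all 6. UGT85A2 was lowest in NG064 roots (8.81 ± 0.32) and averaged 9.32 to 10.53 elsewhere.

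Many members lie near another UGT gene on the chromosome, with at most 1 other protein-coding gene between them. By the gene order of the TAIR10.1 assembly they form 15 runs, some of which hold 1 member and UGT genes not measured here. Neighbours did not always respond alike. UGT73B5 and UGT73B4 on chromosome 2 rose in both organs, and UGT76C2 and UGT76C1 on chromosome 5 both fell in shoots. The shoot call of UGT76C2 was lost without replicate 1, 2 or 3. UGT84A3 and UGT84A4 on chromosome 4 rose in both organs. UGT84A1 beside them was called in neither organ and was at the floor on 33 of 34 shoot and 28 of 34 root arrays. The root call of UGT84A4 was lost without replicate 2 or 3, among other alternatives. UGT71C2 and UGT71C1 on chromosome 2 changed in opposite directions in roots, by -0.69 ± 0.13 and 0.94 ± 0.10. On chromosome 3 UGT71B6 rose in shoots and UGT71B8 was at the floor. UGT73D1 rose in both organs and its neighbour UGT73C7, which acts on hydroxycinnamic acids, was at the floor on 14 to 17 of 17 arrays in each condition. On chromosome 1 UGT71C5 and UGT71C3 rose in shoots and UGT71C4, which lies between them, fell. The rise of UGT71C3 was not called after centring, with all 72 arrays, without replicate 1 or 3, or without El-0, Fei-0 or KB006.

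Beta-glucosidases, which remove such sugars, were counted for context. Of 20 measured genes 2 rose and 3 fell in shoots, where 28.0% of all probe sets rose and 21.9% fell. In roots 1 rose and 6 fell, where 23.6% of all probe sets rose and 19.1% fell. In shoots BGLU16 fell by 1.89 ± 0.15, BGLU43 by 1.01 ± 0.17 and BGLU45 by 0.91 ± 0.15, and BGLU25 rose by 0.76 ± 0.25 and BGLU27 by 0.51 ± 0.17. In roots BGLU45, which acts on monolignol glucosides, fell by 3.37 ± 0.18 (adjusted p = 2.55e-13) and BGLU44 by 2.43 ± 0.16, and BGLU15 rose by 0.21 ± 0.03. BGLU46, the other monolignol glucosidase, fell by 0.87 ± 0.09 in roots. Of genes that supply UDP-sugars 1 was measured, USP, with changes of 0.08 in shoots and 0.10 in roots that were not called.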

How the data were processed

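The deposited table holds log2 expression values per probe set for 72 arrays. Per the submitters' processing notes, affy, GCRMA and limma were used, without versions. The set of arrays normalised jointly was not given in the sources used here. As GCRMA corrects for background, low signals share a floor of 2.11. Values were used as deposited, with no filter. Gene names came from the platform annotation (13513 probe sets with 1 gene, 503 with several, 8730 with none) with symbols updated through RefSeq genes (TAIR10.1).

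With limma 3.58.1 in R 4.3.3, group-means models were fitted over all 22746 probe sets, for each organ on 34 arrays and for both organs on 68. A change was called at a Benjamini-Hochberg adjusted p below 0.05, taken over all probe sets. Standard errors are moderated. On simulated shoot data with 22746 probe sets, 94 of 100 changes of 1 and 100 of 100 changes of 2 (log2) were recovered, with 16 false calls. These changes were placed only where the average level was at least 5, and the simulated noise had no floor. In shoots 22 of 46 members reach that level. Recovery of changes in the lower members, including those at the floor, was not tested. Array number limits the precision.

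The members and lists were chosen with earlier results of these data known, as was the exclusion of 4 arrays. Named are the called members, the 4 smallest p-values of each test between lines, the 5 largest organ differences each way, response differences by smallest p, and the neighbours and beta-glucosidases that changed most. UGT76E12 was chosen after its values were seen. A ranking of members by level was planned and not made. Alternatives were all 72 arrays as labelled, centring, quantile normalization, a mean of 5 or more, another prior, a replicate block and leaving out replicates or lines. Leaving out 3 low-nitrate shoot arrays was added after seeing the data.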

Additional observations from a re-analysis of the deposited data

Results flagged for a closer look

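The nitrate response differed between shoots and roots, by a test of the difference itself, for 26 members. The shoot response was the higher for UGT72E1 (2.56), UGT76B1 (2.23), UGT71C1 (1.69), UGT72E2 (1.48), UGT73C1 (1.43), UGT73B1 (1.36), UGT73B5 (1.35), UGT71B6 (1.32), UGT88A1 (1.31) and UGT84A3 (1.12). For UGT73C1 and UGT71B6, at the floor in all roots, the value is the shoot change alone and no root response was measured. Smaller differences in the same direction were those of UGT71B1 (0.99), UGT72B3, UGT84A4 and UGT85A4 (0.95 each), UGT71C2 (0.61), UGT71C3 (0.53), UGT87A2 (0.50) and UGT71C5 (0.43).

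The root response was the higher for UGT76D1 (-1.52), UGT73D1 (-1.08), UGT76C2 (-1.04), UGT73B4 (-0.74), UGT76C1 (-0.69), UGT71C4 and UGT74F1 (-0.37 each) and UGT85A7 (-0.36). All are shoot response minus root response on the log2 scale. In sufficient-nitrate shoots UGT73B4 (2.38 to 2.67) and UGT73D1 (median 2.41) lay near their own lowest levels. UGT76D1 had a median of 3.79 there, equal to its lowest value in that condition. The shoot changes of these genes are measured from those levels.

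The root response differed between lines for UGT76D1 (adjusted p = 0.00029), UGT73D1 (0.00502), UGT85A4 (0.00533) and UGT72B3 (0.0459) in limma's F test. The values per line are given with the results.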

How the results depend on the processing

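Of the calls of the mean nitrate response in shoots or roots, none was made in the opposite direction under an alternative. With all 72 arrays as labelled, falls in shoots numbered 2, calls within lines 34 in shoots and 48 in roots, and root responses differing between lines 2, against 4, 65, 77 and 4 without the 4 Fei-0 arrays. With arrays centred on their medians, falls in shoots numbered 16, rises in roots 28 and calls within shoot lines 112. Members that differed between organs then numbered 41 at sufficient and 38 at low nitrate, and the response differed between organs for 34. These counts can include genes at the floor, which centring shifts. With a mean of 5 or more required, 12 members rose in shoots and 21 differed between organs at low nitrate, with fewer members tested. Falls in shoots numbered 2 without SG063 and 2 without the 3 low-nitrate shoot arrays with low root-biased signal, where 20 rose. The cause of these moves was not tested.

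Without one replicate number at a time, rises in shoots ranged from 15 to 22 and falls from 2 to 4 (2 without replicate 2 and 2 without replicate 3). Calls within lines ranged from 33 to 56 in shoots and 48 to 66 in roots, members whose response differed between lines from 0 to 3 in shoots and 0 to 4 in roots, and members whose level differed in shoots from 10 to 14. A Fei-0 group then held 1 array where replicate 1 or 2 was left out, and that array was assumed to vary like the other groups. Among shoot falls the calls of UGT76C2 (-0.28 to -0.50) and UGT85A7 (-0.23 to -0.52) were each lost under at least 1 alternative. Among shoot rises, so were those of UGT71B5, UGT71C3, UGT74B1 and UGT80B1, and those of UGT73B4 and UGT73D1 with all 72 arrays. In roots UGT84A4, UGT74F1, UGT71B1 (with all 72 arrays) and UGT85A5 (-0.02 to -0.29) lost a call.

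Replicate numbers showed little pairing of the samples. Same-numbered arrays of a line at the other supply had a mean correlation of deviations of 0.04, against -0.02 for other numbers. Between the organs of a line at the same supply these means were 0.06 and -0.03. Between any other groups of an organ they were 0.05 and -0.03, with single pairs up to 0.64 and 0.66. With a replicate block 19 rose and 4 fell in shoots and 15 rose and 6 fell in roots. A random block shared by shoot and root had a consensus correlation of 0.016 and left the organ counts at 33, 34 and 26. A filter on the mean gave no value for members under it.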
